A study of Mus musculus with 16 samples.

Results

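The class I odorant receptors of mouse form a single large gene cluster on chromosome 7, and 119 of its genes were measured here in olfactory sensory neurons (OSNs) sorted by an activity reporter. Members were the probe sets that the array places on chromosome 7 and names Olfr543 to Olfr692, Olfr64 to Olfr69, or Olfr33, with pseudogene symbols left out. These 119 were 119 of 1081 odorant receptors and of 19572 probe sets with a gene symbol. All 119 were found on chromosome 7 in the RefSeq gene table of GRCm38.p6 by their Entrez identifiers. For 116 of them the table gives a number of an odorant receptor family of class I (MOR1 to MOR42), and for Olfr596, Olfr652 and Olfr681 it gives none. Olfr78 fits the rule but was not analysed here.

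Each mature OSN expresses a single odorant receptor gene, taken from a single allele, so the mRNA level of a receptor in a pool of cells follows how many neurons in the pool chose it and how much each of them makes. Class I receptors resemble the receptors of fish, many of those with known ligands detect carboxylic acids, and their neurons lie mostly in the dorsal part of the olfactory epithelium. A long-range enhancer within the cluster, the J element, acts on many of its genes. In these sorted samples, more neurons of a type and more receptor mRNA per neuron cannot be told apart.

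All mice carried the S100a5-tauGFP reporter, in which green fluorescent protein (GFP) is tied to S100a5. That gene codes for a calcium-binding protein, and OSNs make it when they are active. In the Kentucky assay awake mice meet an odorant, and fluorescent and non-fluorescent cells of the olfactory mucosa are then sorted apart. The 24 mice, 7 to 12 weeks old and of both sexes, were kept singly in clean air chambers for 40 h at 3.1 L/min. Stimulation began at 26 h, with a pulse lasting 10 s repeated at intervals of 20 min. The pulse was plain filtered air in the vehicle groups and undiluted (100%) citrus accord, a blend of scents, in the others. Each array held RNA from cells of 3 pooled mice, and the 16 arrays formed 4 groups of n = 4: vehicle GFP-positive, vehicle GFP-negative, citrus GFP-positive and citrus GFP-negative. GFP-positive and GFP-negative arrays of a stimulus with the same replicate number were taken as a pair from the same 3 mice, which makes 8 pools. The labels say no more on how pools were kept apart, so each p-value rests on how these pools differ, whatever the source.

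The deposited values are log2 expression values, and arrays give no read depth. A background line was drawn on each array at the 95th percentile of 5222 negative-control probes, which lay between 8.75 and 9.71. On single arrays 22 to 58 of the 119 members stood above that line. Over the series 34 members were above it on all 4 arrays of at least 1 group, and 53 were never above it on any array. Differences were tested with limma over all 19572 probe sets. A member is called higher or lower at an adjusted p (Benjamini-Hochberg) of at most 0.05, and the error after ± is the standard error of that model. The mean level of 15 mature OSN markers was 16.54 to 16.75 on the GFP-positive and 16.20 to 16.48 on the GFP-negative arrays. Of the 15, 3 were higher in GFP-positive cells in vehicle and 5 in citrus and 0 lower, with medians of 0.28 and 0.39. Centred on all probe sets, 12 were higher in vehicle and 15 in citrus and 0 lower, with medians of 0.57 and 0.72. Centred on all receptors, 0 were higher, 1 and 6 were lower and the medians were -0.17 and -0.35. Omp, the olfactory marker protein, lay between 18.83 and 19.42 on all 16 arrays, with a gate difference of 0.27 ± 0.14 in vehicle (adjusted p = 0.192). The gate sorted by the reporter gene, since S100a5 was higher in GFP-positive cells by 1.91 ± 0.13 in vehicle and 1.88 ± 0.13 in citrus (adjusted p = 8.38e-09 and 8.64e-09). Markers of other cells were mostly higher in the GFP-negative samples. In vehicle all 13 measured markers of myeloid and lymphoid cells were lower in GFP-positive cells, with a median difference of -9.01, their mean level being 5.59 to 6.66 in GFP-positive and 13.20 to 14.10 in GFP-negative arrays. Of 12 immature OSN markers 5 were lower, among them Gng8 at -4.04 ± 0.18, and the median of the 12 was -0.235. Centred on all probe sets, 2 of them were higher and 5 lower (median 0.046), and centred on all receptors 0 and 7 (median -0.69). As deposited, 6 of 6 progenitor, 7 of 8 microvillous, 1 of 9 sustentacular and 2 of 8 Bowman gland markers were lower too. Their part in the receptor differences was not tested.

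The GFP-positive arrays of replicate 3 stood apart for these receptors under both stimuli. The median level of the 119 members was 8.62 on the vehicle GFP-positive array 3, against 7.03, 6.73 and 7.31 on arrays 1, 2 and 4. On the citrus GFP-positive array 3 it was 8.64, against 7.42, 7.16 and 7.19. In the GFP-negative arrays the medians of all 8 lay between 6.39 and 7.05. In vehicle 92 of 119 members (77.3%) had their highest GFP-positive value on array 3, and in citrus 76 of 119 (63.9%). Among the 962 odorant receptors outside the cluster these shares were 21.8% and 27.7%, and among all probe sets 21.5% and 25.6%. In GFP-negative cells array 3 was the highest for 47 members (39.5%) in vehicle, beside 20.1% outside the cluster, and for 24 (20.2%) in citrus, beside 10.6%. The number of members above the background line was 41 and 58 on these arrays, and 22 to 35 on the other GFP-positive arrays. The line itself differed between arrays, so these counts depend on it too. Olfr586 at 9.61 was below it on the vehicle GFP-positive array 3, and Olfr553 at 8.99 was above it on the citrus one.

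Of the genes that mark zones of the epithelium, Nqo1 and Acsm4, enzymes of dorsal neurons, had their highest GFP-positive values there. Nqo1 read 17.32 and 17.22 on the vehicle and citrus GFP-positive arrays 3 and 16.25 to 17.01 on the other 6. Acsm4 read 14.18 and 14.19 on those arrays and 13.01 to 13.65 on the others. Array 3 was also the highest of the GFP-negative arrays for Nqo1 under both stimuli (16.49 and 16.69) and for Acsm4 in vehicle (13.41). Over the whole list of 10 zone genes, 2 in vehicle and 3 in citrus had their highest GFP-positive value on array 3 and 2 and 6 had their lowest, and the mean of the list there was 11.07 and 11.03, against 10.90 to 11.24 and 11.06 to 11.16 on the other arrays. Besides Nqo1 and Acsm4, the one added in citrus was Tbx5, which was never above the background line. Robo2, Nrp2, Ncam2, Nfia, Nfib, Nfix and Tbx6 were not highest there under either stimulus. Ncam2, an adhesion molecule of ventral neurons, read 14.09 and 14.15 on arrays 3, against 14.01 to 14.35 and 14.40 to 14.80 on the other GFP-positive arrays. Their part in the receptor values was not tested. The main counts below, and the members whose values or calls this replicate moved most, are therefore given with and without it, an alternative chosen after seeing the data.

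**Figure D1:**
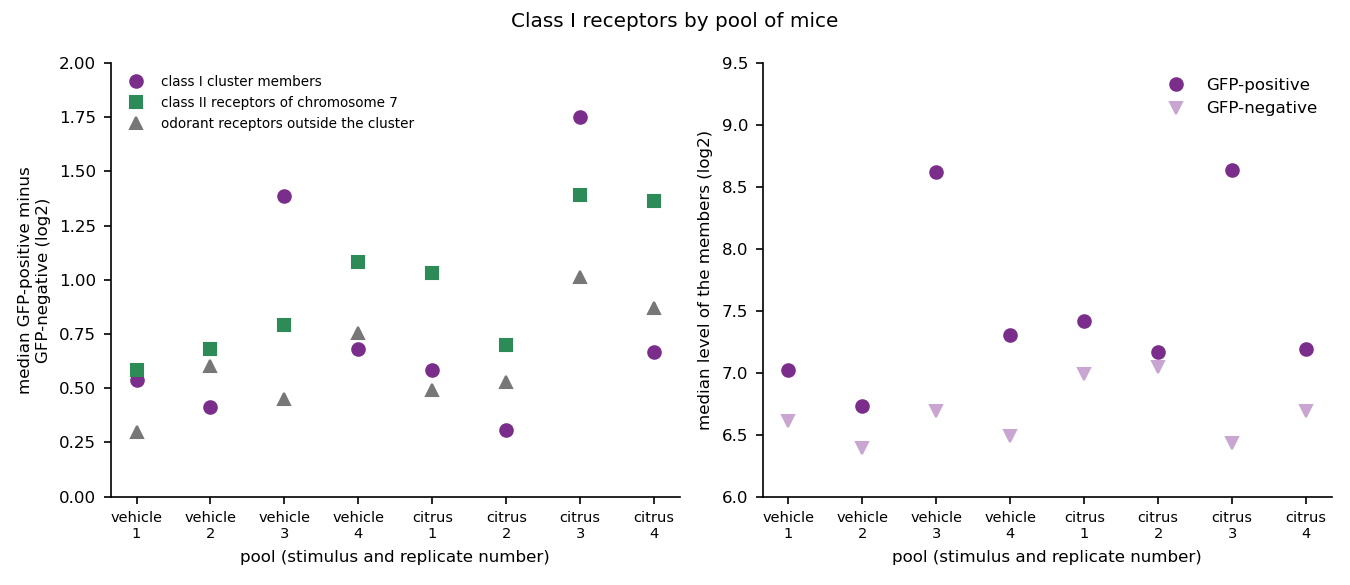
The left panel shows, for each pool (stimulus and replicate number), the median GFP-positive minus GFP-negative difference on the log2 scale of the 119 class I members (circles), of 112 class II receptors of chromosome 7 (squares) and of 962 receptors outside the cluster (triangles); the right panel shows the members' median log2 level on each array. Pool 3 of both stimuli has the highest class I medians, 1.39 and 1.75, against 0.31 to 0.68 in the other 6 pools.

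In vehicle, class I receptors fell into a large set that was higher in GFP-positive cells and a smaller set that was far lower. Among the 119 members 48 were higher (9.05% of all probe sets were called higher), 15 were lower (9.97% of all probe sets) and 56 were not called (19% of all probe sets were called in either direction). The median difference of the members was 0.79, beside 0.11 over all probe sets. When arrays were centred on the median of all receptors, 39 were higher and 20 lower. Differences reached 4.02 ± 0.57 for Olfr613 and -6.62 ± 0.29 for Olfr677. In 39 members every GFP-positive array was above every GFP-negative array (10.9% of all probe sets), and in 13 it was the reverse (9.96%). Without replicate 3 of both stimuli 37 members were higher (5.71% of all probe sets) and 21 lower (8.38%), and the median was 0.57, beside 0.12 over all probe sets. The 37 were all among the 48 and the 21 included all 15 lower members, so 11 rises were no longer called and 6 members were newly lower.

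In citrus, 52 members were higher (7.44% of all probe sets were called higher), 14 were lower (10.8%) and 53 were not called (18.2% of all probe sets were called in either direction), with a median of 0.94 beside 0.13 over all probe sets. Without replicate 3 of both stimuli these counts were 37 higher (4.23% of all probe sets) and 20 lower (8.87%), with a median of 0.53 beside 0.12. Centring on all receptors made them 35 and 25, with 10322 of the 19572 probe sets called in either direction. Centring on the median of all probe sets made them 67 and 13, with 10839 called. Groups that did not overlap were found for 45 higher (11.7% of all probe sets) and 14 lower members (11%). Both gates gave the same call for 42 higher members (4.27% of all probe sets were higher in both) and 13 lower members (8.57%), and no member was called in opposite directions. The signs of both gate differences were equal in 113 of 119 members. In 49 members the GFP-positive array was above its GFP-negative partner in all 8 pools, and in 13 it was below in all 8. The like share over all probe sets is not given here. In single pools 71 to 103 members were above, beside 529 to 675 of the 962 receptors outside the cluster. Of all 19572 probe sets it was 10778 to 11866. The gate differences of vehicle and citrus correlated across members with Pearson's r = 0.97 and Spearman's rho = 0.94 (n = 119 genes, which are not independent replicates and share the arrays).

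Other odorant receptors were also called in both directions. Of the 112 class II receptors elsewhere on chromosome 7, 42.9% were higher and 14.3% lower in vehicle, and of the 962 receptors outside the cluster 38.7% and 21.4%, beside 40.3% and 12.6% of the class I members. In citrus the shares were 52.7% and 10.7%, 42.5% and 20.6%, and 43.7% and 11.8%, in the same order. Without replicate 3 of both stimuli the class I shares were 31.1% higher and 17.6% lower in vehicle, beside 42% and 14.3% of class II on chromosome 7 and 37.7% and 20.7% outside the cluster. In citrus they were then 31.1% and 16.8%, beside 47.3% and 13.4%, and 38.9% and 21.5%. The difference between the classes was not tested.

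**Figure D2:**
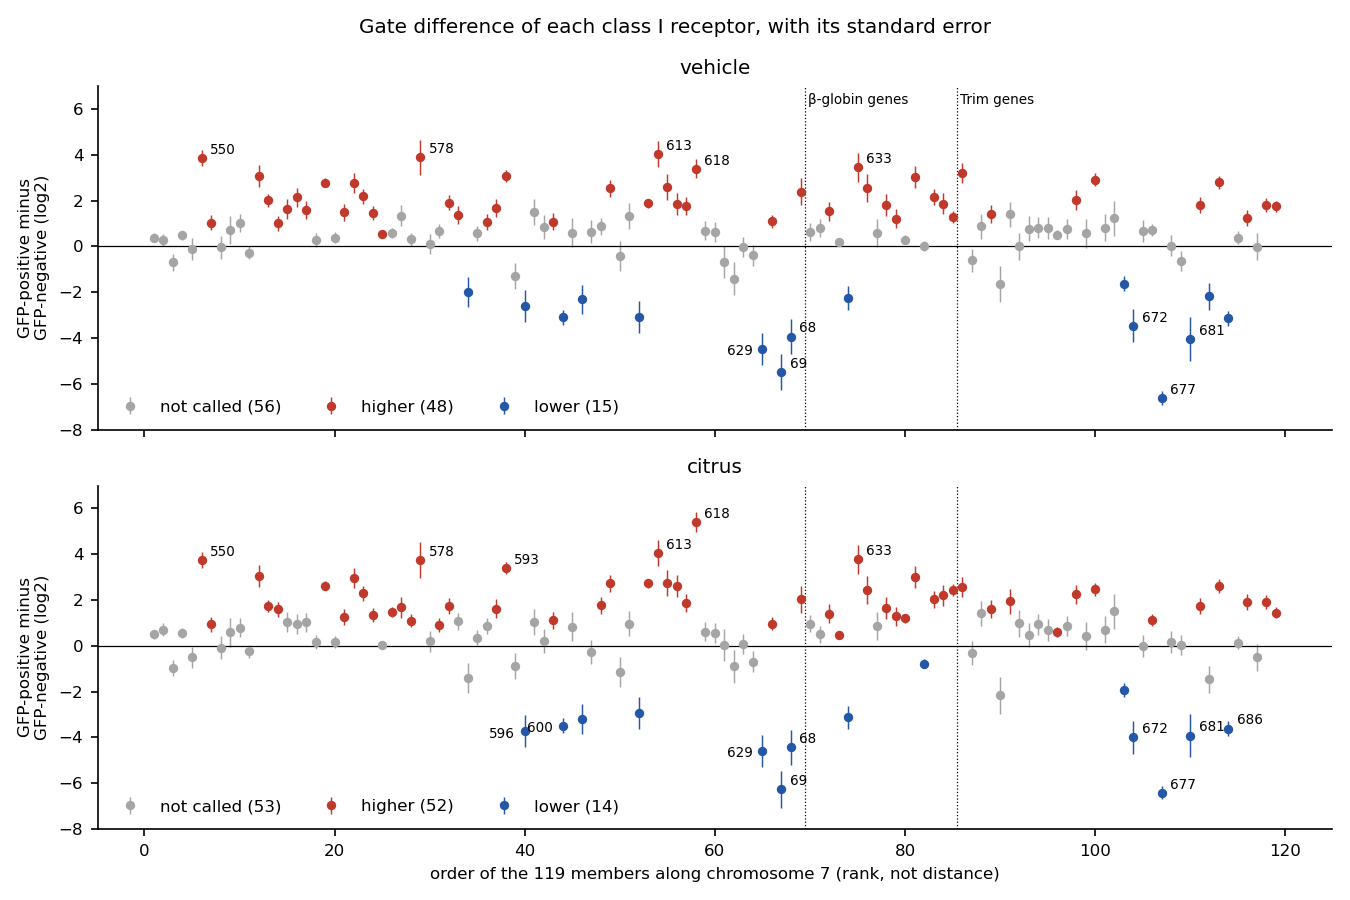
Each point is a class I receptor, placed on the horizontal axis by its rank along chromosome 7 and on the vertical axis by its GFP-positive minus GFP-negative difference (log2) in vehicle (top) or citrus (bottom), with its standard error; colours give the call, dotted lines the places of the β-globin and Trim genes, and numbers the Olfr names of the outermost points. Higher members are spread over the whole cluster, while lower members are fewer and reach -6.62.

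Olfr618 was above the background line on every GFP-positive array and on no GFP-negative array. Its vehicle GFP-positive values were 10.88, 11.56, 11.52 and 11.74, and its GFP-negative values were 8.55, 7.11, 8.58 and 7.89. The groups did not overlap, and the difference was 3.39 ± 0.42 (adjusted p = 1.04e-05). In citrus it was 5.41 ± 0.42 (adjusted p = 3.42e-08), from GFP-positive values of 10.18, 10.85, 10.68 and 10.96 and GFP-negative values of 4.53, 5.67, 4.28 and 6.57. With the line in place of the dim values its level was at least 4.43-fold higher in vehicle and at least 3.30-fold in citrus. Group means were 11.42 and 8.04 in vehicle, and 10.67 and 5.26 in citrus.

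Olfr550 differed by a like amount under both stimuli. In vehicle its GFP-positive values were 11.20, 11.19, 10.27 and 10.69, and its GFP-negative values were 6.72, 7.23, 7.47 and 6.49. The difference was 3.86 ± 0.35 in vehicle and 3.75 ± 0.35 in citrus (adjusted p = 3.29e-07 and 3.51e-07), at least 2.94-fold and 3.68-fold against the line, from group means of 10.84 and 6.98 in vehicle and 10.82 and 7.07 in citrus. Its replicate 3 values were the lowest of the GFP-positive arrays under both stimuli (10.27 and 9.92), so it was an exception to the step seen on these arrays. Olfr593 gave 9.56, 10.00, 10.47 and 10.21 in vehicle GFP-positive cells and 6.93, 7.33, 7.35 and 6.37 in GFP-negative cells, a difference of 3.07 ± 0.27 (adjusted p = 2.38e-07). In citrus it differed by 3.40 ± 0.27 (adjusted p = 5.48e-08), and against the line it was at least 1.72-fold and 2.58-fold higher, with group means of 10.06 and 6.99 in vehicle and 10.32 and 6.92 in citrus.

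Other large rises were of receptors that were above the line on few arrays or none. Olfr613 was below it on all 16 arrays: its vehicle values were 4.95, 8.25, 8.11 and 8.78 in GFP-positive and 3.41, 3.30, 3.80 and 3.49 in GFP-negative cells (4.02 ± 0.57, adjusted p = 4.59e-05). The groups did not overlap, though array 1 was the lowest of the GFP-positive arrays. Olfr578 differed by 3.89 ± 0.77, Olfr633 by 3.45 ± 0.64, Olfr651 by 3.19 ± 0.44 and Olfr556 by 3.07 ± 0.49 in vehicle, with adjusted p between 3.39e-05 and 0.00139. Their GFP-negative values were below the line on every array. In citrus these 4 differed by 2.56 to 3.77, and Olfr644, with 3.01 ± 0.47, joined the 8 largest rises. The 9 receptors with the largest rises kept their call without replicate 3 of both stimuli. Of the 48 members higher in vehicle, 14 were above the line on all 4 arrays of a group and 19 never were.

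Receptors lower in GFP-positive cells were fewer. In vehicle 4 of them (Olfr677, Olfr69, Olfr68 and Olfr603) were above the line on every GFP-negative array and on no GFP-positive one. In citrus 1, Olfr677, was. There Olfr69, Olfr68 and Olfr603 were above the line on 1 GFP-positive array each, array 3 (9.77, 10.42 and 10.25). The GFP-negative values of Olfr677 were 10.40, 11.44, 11.08 and 11.24 in vehicle and 11.16, 11.27, 11.48 and 11.80 in citrus. In GFP-positive cells they were 4.02, 4.30, 4.77 and 4.60 in vehicle and 4.31, 4.68, 5.79 and 5.28 in citrus. The gates did not overlap under either stimulus. The differences were -6.62 ± 0.29 and -6.41 ± 0.29 (adjusted p = 5.92e-11 and 7.01e-11), at least 3.24-fold and 5.51-fold lower against the line, from group means of 11.04 and 4.42 in vehicle and 11.43 and 5.02 in citrus. Without replicate 3 of both stimuli they were -6.72 and -6.65.

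Olfr69 gave 6.12, 5.96, 8.82 and 6.02 in vehicle GFP-positive cells against 11.60, 12.20, 12.77 and 12.30 in GFP-negative cells, a difference of -5.49 ± 0.81 (adjusted p = 7.29e-05). With group means of 12.22 and 6.73 it was at least 7.31-fold lower against the line. In citrus the GFP-positive values were 5.09, 5.94, 9.77 and 5.18 against 12.94, 12.24, 13.26 and 12.55 (-6.25 ± 0.81, adjusted p = 1.45e-05). The value of GFP-positive array 3 was the outermost under both stimuli, and without replicate 3 the differences were -6.00 and -7.17. Olfr681 behaved in the same way, with 7.07, 7.01, 11.42 and 8.47 in vehicle GFP-positive cells and 8.73, 7.05, 12.44 and 7.77 in citrus. Its GFP-negative values lay between 12.17 and 13.27 on all 8 arrays, and it was lower, at -4.05 ± 0.95 and -3.92 ± 0.95 (adjusted p = 0.00561 and 0.00644), or -4.90 and -4.95 without replicate 3. Olfr672 read 9.13, 10.09, 12.43 and 9.73 against 13.48, 13.88, 14.23 and 13.66 in vehicle (-3.47 ± 0.73, adjusted p = 0.00239). It was above the line in GFP-positive cells too, on all 4 vehicle arrays and 3 of 4 citrus arrays.

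The other named falls in vehicle were Olfr629 (-4.47 ± 0.69), Olfr68 (-3.94 ± 0.77), Olfr686 (-3.14 ± 0.32) and Olfr600 (-3.11 ± 0.33), and in citrus Olfr596 (-3.73 ± 0.70) was added. The adjusted p of these 5 were between 1.01e-06 and 0.00118. In vehicle Olfr686 and Olfr600 were above the line on no array and Olfr629 on 1, so the sizes of these 3 are differences between values mostly within the range of the negative controls. Olfr68 was above the line on all 4 vehicle GFP-negative arrays and no GFP-positive array, at least 5.01-fold lower against the line, with group means of 11.67 and 7.73. Of the 13 members that were lower in both gates, 12 in vehicle and all 13 in citrus had their highest GFP-positive value on array 3. Their median on that array was 7.74 in vehicle, against 5.36, 5.71 and 5.37, and 8.56 in citrus, against 5.09, 5.09 and 5.25. In GFP-negative cells their array medians lay between 10.03 and 10.96. All 13 were lower in pool 3 as well as in the other pools.

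Replicate 3 also decided some calls. Olfr655 gave 9.06, 9.89, 12.33 and 9.79 in vehicle GFP-positive cells against 11.56, 12.31, 12.02 and 11.75, a difference of -1.64 ± 0.80 (adjusted p = 0.17). Without replicate 3 it was lower, at -2.30 in vehicle and -3.06 in citrus (adjusted p = 0.000154 and 1.09e-05) and was thus called only without that replicate. Olfr609, a case chosen after its values were seen like Olfr655, was called lower in citrus without replicate 3 (-2.21, adjusted p = 0.000355) and not with it (-1.14 ± 0.67, adjusted p = 0.264). Olfr566, a member of MOR14 shown for its signal above the line on all 16 arrays, differed by 2.78 ± 0.20 in vehicle, with 13.15, 13.20, 13.60 and 13.15 against 10.69, 10.30, 10.25 and 10.75 (adjusted p = 2.04e-08).

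**Figure D3:**
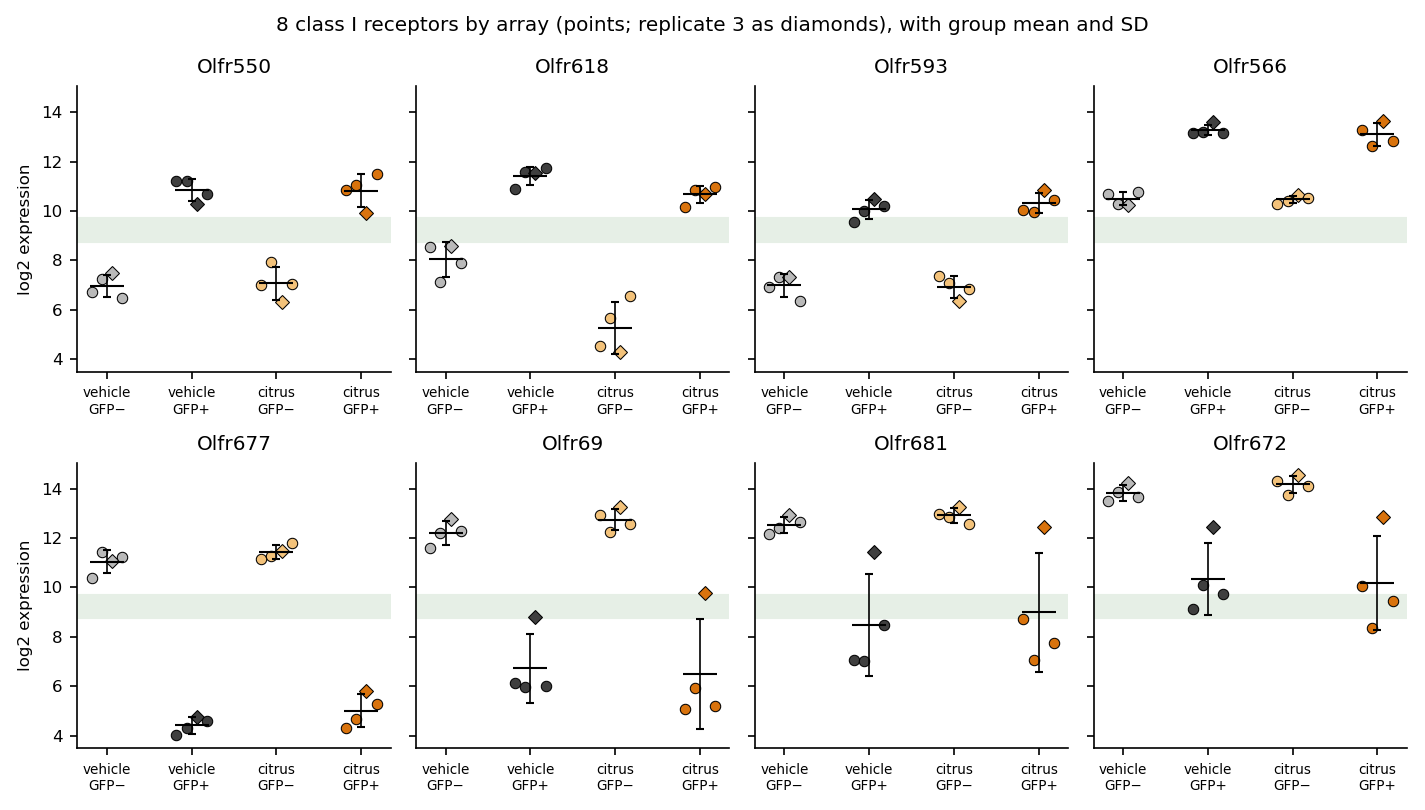
Log2 expression of 8 class I receptors on each of the 16 arrays, with group mean and SD (n = 4 per group); diamonds mark replicate 3, and the green band spans the background lines of the arrays, 8.75 to 9.71. The upper 4 receptors are higher in GFP-positive cells, the lower 4 are lower, and in Olfr69, Olfr681 and Olfr672 the diamonds of the GFP-positive groups lie above the other 3 arrays.

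The receptors beside the β-globin genes moved in both directions. Olfr629, Olfr69 and Olfr68 were lower, whereas Olfr67, the next gene along, was higher by 2.38 ± 0.58 in vehicle and 2.03 ± 0.58 in citrus (adjusted p = 0.00717 and 0.0196). Olfr67 read 9.59, 9.36, 10.81 and 10.19 in vehicle GFP-positive cells and 6.28, 8.59, 7.62 and 7.93 in GFP-negative cells. Without replicate 3 it was 2.12 in vehicle (adjusted p = 0.0273) and 1.34 in citrus, where it was no longer called (adjusted p = 0.18). On the other side of the globin genes Olfr65 was higher by 1.53 ± 0.42 and 1.40 ± 0.42 (adjusted p = 0.0146 and 0.0244), and by 1.18 and 1.14 without replicate 3 (adjusted p = 0.127 and 0.159). Olfr64, at 0.79 ± 0.38 and 0.51 ± 0.38 (called in vehicle, adjusted p = 0.0109, with the pool as a replicate block), and Olfr66, at 0.63 ± 0.38 and 0.97 ± 0.38, were not called.

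Promoter sequence was available from RefSeq (GRCm38.p6) for 103 of the 119 members, as windows of 250 bases before and 50 after the annotated start. For 76 of these an ATG stands at the annotated start, which was read as the coding start itself. The other 27 windows were taken to have an upstream start, which was not checked further. Windows are shown for the members with the largest rises and falls that have such a start, and for Olfr67 near Olfr69, so that nearby genes that moved in opposite directions can be compared. Sequences run 5′ to 3′ on the gene's strand. Capitals mark matches, on either strand, to the core CCCNNGGG bound by EBF (O/E) factors or to the homeodomain cores TAATTA and TAATGA.
Olfr550 (chr7:102578219-102578518, plus strand): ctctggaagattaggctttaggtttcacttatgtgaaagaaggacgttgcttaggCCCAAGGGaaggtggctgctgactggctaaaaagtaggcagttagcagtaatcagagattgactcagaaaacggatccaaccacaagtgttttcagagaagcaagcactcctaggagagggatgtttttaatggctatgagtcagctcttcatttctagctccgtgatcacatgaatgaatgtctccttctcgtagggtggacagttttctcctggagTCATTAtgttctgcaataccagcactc
Olfr613 (chr7:103550118-103550417, plus strand): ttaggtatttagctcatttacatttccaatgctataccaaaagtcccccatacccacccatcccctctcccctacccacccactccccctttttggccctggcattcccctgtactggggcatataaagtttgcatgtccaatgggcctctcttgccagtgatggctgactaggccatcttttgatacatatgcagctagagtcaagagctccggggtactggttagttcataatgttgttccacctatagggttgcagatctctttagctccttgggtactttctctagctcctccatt
Olfr69 (chr7:103771545-103771844, minus strand): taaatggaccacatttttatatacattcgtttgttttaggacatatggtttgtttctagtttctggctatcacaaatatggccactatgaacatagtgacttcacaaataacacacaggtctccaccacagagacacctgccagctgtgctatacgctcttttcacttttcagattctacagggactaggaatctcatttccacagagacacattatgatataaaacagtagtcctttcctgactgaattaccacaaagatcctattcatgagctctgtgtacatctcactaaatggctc
Olfr67 (chr7:103791781-103792080, minus strand): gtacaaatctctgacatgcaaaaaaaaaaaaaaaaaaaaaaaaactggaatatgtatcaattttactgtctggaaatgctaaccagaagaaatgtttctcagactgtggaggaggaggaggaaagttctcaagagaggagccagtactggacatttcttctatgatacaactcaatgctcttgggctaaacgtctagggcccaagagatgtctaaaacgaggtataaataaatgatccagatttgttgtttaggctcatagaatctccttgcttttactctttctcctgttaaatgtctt
Olfr629 (chr7:103741273-103741572, minus strand): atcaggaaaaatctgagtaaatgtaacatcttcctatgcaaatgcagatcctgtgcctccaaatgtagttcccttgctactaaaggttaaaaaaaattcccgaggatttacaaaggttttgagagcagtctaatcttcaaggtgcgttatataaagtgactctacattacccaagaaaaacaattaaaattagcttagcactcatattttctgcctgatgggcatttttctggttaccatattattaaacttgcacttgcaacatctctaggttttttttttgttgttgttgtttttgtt

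Olfr550 held both kinds of match, an EBF core at -195 and, on the opposite strand, TAATGA at 24 from the start. The other 4 windows held none of the 3 letter strings. Over the 27 windows with an upstream start, CCCNNGGG was present in 2 (7.41%) and either homeodomain core in 9 (33.3%). Among 232 such windows of other odorant receptors the shares were 7.76% and 47.0%, and among all 32851 windows that RefSeq gave 13.7% and 13.9%. By call in vehicle, 6 of 14 windows of higher members, 0 of 2 of lower members and 3 of 11 of members not called held a homeodomain core. TAATTA reads the same on both strands. A match is a run of letters and not a measured binding site.

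Neighbouring receptors often differed. Between neighbours Pearson's r was 0.06 in vehicle and 0.09 in citrus over 118 pairs, which share genes and arrays. In vehicle 24 pairs were higher together, 2 were lower together (Olfr69 with Olfr68, and Olfr671 with Olfr672) and 11 were called in opposite directions. Around Olfr685 the vehicle calls alternated over 5 genes: Olfr681 was lower, Olfr683 higher by 1.79 ± 0.34, Olfr684 lower, at -2.18 ± 0.59, Olfr685 higher by 2.80 ± 0.29 and Olfr686 lower, at -3.14 ± 0.32. Of these, Olfr683 and Olfr684 were below the line on all 16 arrays and Olfr686 on all vehicle arrays. Their sizes are differences between values below the line. Olfr685 was above the line on all 4 vehicle GFP-positive arrays with 12.41, 11.78, 13.09 and 12.47, beside 9.31, 10.18, 9.83 and 9.24 in GFP-negative cells. Olfr611 and Olfr612, neighbours of the same family (MOR15), differed by -3.09 ± 0.69 and 1.88 ± 0.19. In vehicle Olfr612 was above the line on no array, and Olfr611 only on 2 GFP-negative arrays. In the stretch before the β-globin genes 30 of 69 members were higher and 8 lower, between them and the Trim genes 9 of 16 and 1, and beyond the Trim genes 9 of 34 and 6. These pairs were chosen after their values were seen.

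Receptor families with at least 5 members were described 1 by 1. In MOR31, 7 of 11 members were higher in vehicle and none lower, with a median of 1.76; the 7 included Olfr618, Olfr651 and Olfr67. In citrus 7 were higher as well, with a median of 1.92. The MOR31 median stayed above 0 under each of the 3 other scalings (1.18 to 2.24), as did those of MOR13, MOR14 and MOR34. With arrays centred on receptors 1 MOR31 member was lower in citrus. In MOR32, 4 of 11 were lower in both gates (Olfr677, Olfr672, Olfr603 and Olfr671), and only Olfr592 was higher in vehicle, by 1.67 ± 0.39. The MOR32 median was 0.03 in vehicle and -0.01 in citrus, and its sign depended on the scaling (-0.75 to 0.32). Of MOR13 3 of 5 were higher in vehicle and 4 in citrus, where Olfr645 was lower (-0.78 ± 0.21, below the line on all 16 arrays). Of MOR14 4 of 7 were higher in vehicle and 2 in citrus, and in vehicle 2 with arrays centred on receptors or on OSN markers. Of MOR34 2 of 7 were higher in both gates. Of MOR40 2 of 8 were higher in vehicle and 3 in citrus, and Olfr684 was lower in vehicle. The MOR40 median, 0.44 in vehicle and 0.66 in citrus, fell to -0.02 and -0.08 when arrays were centred on the median of all receptors. Many of these members were never above the background line: 3 of 5 in MOR13, 6 of 7 in MOR14 and 6 of 11 in MOR31. In MOR32 it was 5 of 11, in MOR34 1 of 7 and in MOR40 5 of 8. The family counts and medians thus rest partly on values within the range of the negative controls. A difference between these 6 families was not tested.

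**Figure D4:**
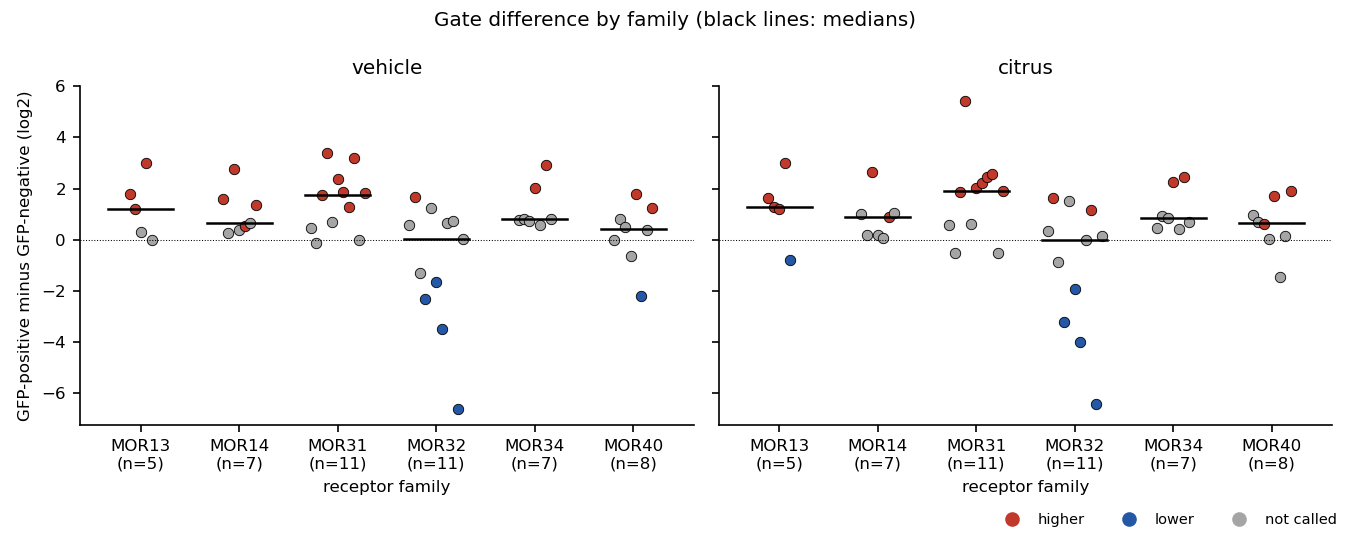
GFP-positive minus GFP-negative difference (log2) of each member of the 6 families with at least 5 members, in vehicle (left) and citrus (right); colours give the call and black lines the family medians. MOR31 has 7 higher and 0 lower members in both panels, and MOR32 has 4 lower ones. Never above the background line were 6 of 11 members of MOR31 and 5 of 11 of MOR32.

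Genes that neighbour the receptors on chromosome 7 and code for other proteins gave calls that depended on the scaling. Of 39 measured, 7 were lower in GFP-positive cells and 1 was higher in vehicle, with equal counts in citrus. Centred on all probe sets, 10 were higher and 7 lower in vehicle and 16 and 6 in citrus, and centred on all receptors, 0 were higher and 9 and 22 lower. The 7 lower as deposited were Trim6, Trim12a, Trim12c, Trim30a and Trim30b, members of a family of antiviral and ubiquitin ligase proteins, Rhog, a small GTPase, and Gvin1, an interferon-induced GTPase. Rhog was lower, at -2.63 ± 0.28 and Trim12a at -2.22 ± 0.38. Of these 39, 27 were never above the background line. These included all 7 lower genes except Rhog, so the size for Trim12a is a difference between values below the line. Myeloid markers moved in the same direction, with a median of -9.01, and their part was not tested. Cnga4, a subunit of the olfactory transduction channel whose gene lies at the edge of the cluster, differed by 0.20 ± 0.14 (adjusted p = 0.348). Among 20 genes of receptor choice and trafficking, Rtp2, which helps receptors to the membrane, was higher by 0.75 ± 0.17 (adjusted p = 0.00437) and Lbr, a lamin B receptor of the nuclear envelope, was lower, at -1.63 ± 0.29 (adjusted p = 0.000435). Lhx2 and Ldb1, which form the factor complex at receptor enhancers, differed by -0.17 ± 0.18 and -0.07 ± 0.13. Of 16 genes of olfactory transduction 3 were higher in vehicle (Cnga2, Ano2 and Pde1c) and 1, Grk3, never above the line, was lower, with differences of 0.51 ± 0.15, 0.64 ± 0.13, 0.95 ± 0.16 and -1.20 ± 0.23. The calls of both lists moved with the scaling. Centred on all probe sets, 4 of the 20 were higher and 1 lower in vehicle (11 and 1 in citrus), and 9 of the 16 higher and 1 lower (13 and 1). Centred on all receptors, 0 were higher in either list, with 3 of the 20 (13 in citrus) and 3 of the 16 (6 in citrus) lower.

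A single class I receptor passed the threshold between citrus and vehicle, and only in GFP-negative cells. In GFP-positive cells no member was called between citrus and vehicle (limma, 0.0204% of all probe sets were called). At an unadjusted p under 0.05 were 4 of the 119 members, all of them higher, beside 404 higher and 390 lower of the 19572 probe sets. In GFP-negative cells Olfr618 was called lower and no member higher (0.00511% of all probe sets were called lower, 0.0102% higher and 0.0153% in either direction). There 6 members had an unadjusted p under 0.05, 3 in each direction, beside 581 higher and 570 lower of all probe sets. For the effect of citrus on the gate difference no member was called (0% of all probe sets). At an unadjusted p under 0.05 it was 5 members higher and 1 lower, beside 376 and 346 of all probe sets. The median citrus minus vehicle difference of the members was 0.26 within each gate, beside 0.01 over all probe sets in both. Outside the cluster the receptors' medians were 0.17 (GFP-positive) and 0.03 (GFP-negative). The members' GFP-positive median rested on single pools: it was -0.0012 without citrus replicate 3, 0.50 without vehicle replicate 3 and 0.27 without both, 0.11 without vehicle replicate 1 or 2, 0.40 without citrus replicate 2, and 0.02 with arrays centred on all receptors. In GFP-negative cells it ranged from 0.18 to 0.34 when 1 pool was left out.

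Olfr618, whose gate values are given above, was lower in GFP-negative cells after citrus by -2.77 ± 0.42 (95% interval -3.66 to -1.89, adjusted p = 0.027). The 4 vehicle GFP-negative arrays read 7.11 to 8.58 and the 4 citrus GFP-negative arrays 4.28 to 6.57, so they did not overlap. All 8 of these values were below the background line of the array. In GFP-positive cells the difference was -0.76 ± 0.42 (95% interval -1.64 to 0.13, adjusted p = 0.999). The gate difference was larger in citrus by 2.02 ± 0.59 (95% interval 0.77 to 3.27), with an unadjusted p of 0.00332 and an adjusted p of 0.999. The call in GFP-negative cells was lost under 10 of 19 alternatives: adjusted p was 0.0557 with a trended and robust prior, 0.0559 with array weights and 0.437 with the 2 GFP-negative groups alone. It was lost in 6 of 8 fits that left out a pool, with adjusted p from 0.00337 to 0.332 over the 8, and without replicate 3 of both stimuli it was 0.964. Over the 19 alternatives the difference ranged from -3.21 to -2.26.

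The next smallest p-values for the effect on the gate difference belonged to Olfr649, Olfr642, Olfr612 and Olfr575. Olfr649 read 6.51, 6.33, 7.17 and 6.51 in vehicle GFP-positive cells and 6.62, 7.09, 7.37 and 7.50 in citrus, and its GFP-negative values were 5.14, 5.09, 5.38 and 5.83 in vehicle and 4.76, 5.11, 4.11 and 4.86 in citrus. The groups of the 2 stimuli overlapped in each gate, and the effect was 1.17 ± 0.35 (95% interval 0.42 to 1.92, adjusted p = 0.999). Olfr642, Olfr612 and Olfr575 gave 0.92 ± 0.28, 0.85 ± 0.28 and 0.91 ± 0.31 (adjusted p = 0.999 each). Within GFP-positive cells the smallest p were those of Olfr577 (0.94 ± 0.29) and Olfr575 (0.70 ± 0.22). Within GFP-negative cells, after Olfr618, they were those of Olfr33 (1.18 ± 0.43), Olfr649 (-0.65 ± 0.25), Olfr612 (-0.50 ± 0.19) and Olfr651 (1.00 ± 0.44), with adjusted p of 0.824 or more.

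Of class I receptors with published ligands, Olfr544, which responds to azelaic acid, read 7.03, 6.73, 7.24 and 6.88 in vehicle GFP-positive cells and 7.13, 7.99, 8.18 and 7.36 in citrus GFP-positive cells. The groups overlapped, and the difference was 0.70 ± 0.27 (95% interval 0.12 to 1.27, unadjusted p = 0.0207, adjusted p = 0.999). Its gate differences were 0.28 ± 0.27 and 0.71 ± 0.27 and were not called; both fell below 0 (-0.18 and -0.029) when arrays were centred on the receptor median. Olfr558, a receptor of short-chain fatty acids, was higher in GFP-positive cells by 1.01 ± 0.33 in vehicle (adjusted p = 0.0399) and 1.60 ± 0.33 in citrus (adjusted p = 0.00171). Its adjusted p without replicate 3 was 0.137 and 0.0468, and with a replicate block by number or by pool its vehicle call was lost (adjusted p = 0.0573 and 0.0525). Its citrus minus vehicle difference in GFP-positive cells was 0.29 ± 0.33 (adjusted p = 0.999). Olfr620 differed between the gates by 0.62 ± 0.44 and 0.55 ± 0.44 and was not called. All 3 were below the background line on all 16 arrays. Olfr33 was higher in vehicle GFP-positive cells by 1.62 ± 0.43 (adjusted p = 0.0127) and not called in citrus (1.04 ± 0.43, adjusted p = 0.109); the effect of citrus on its gate difference was -0.58 ± 0.61 (adjusted p = 0.999).

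**Figure D5:**
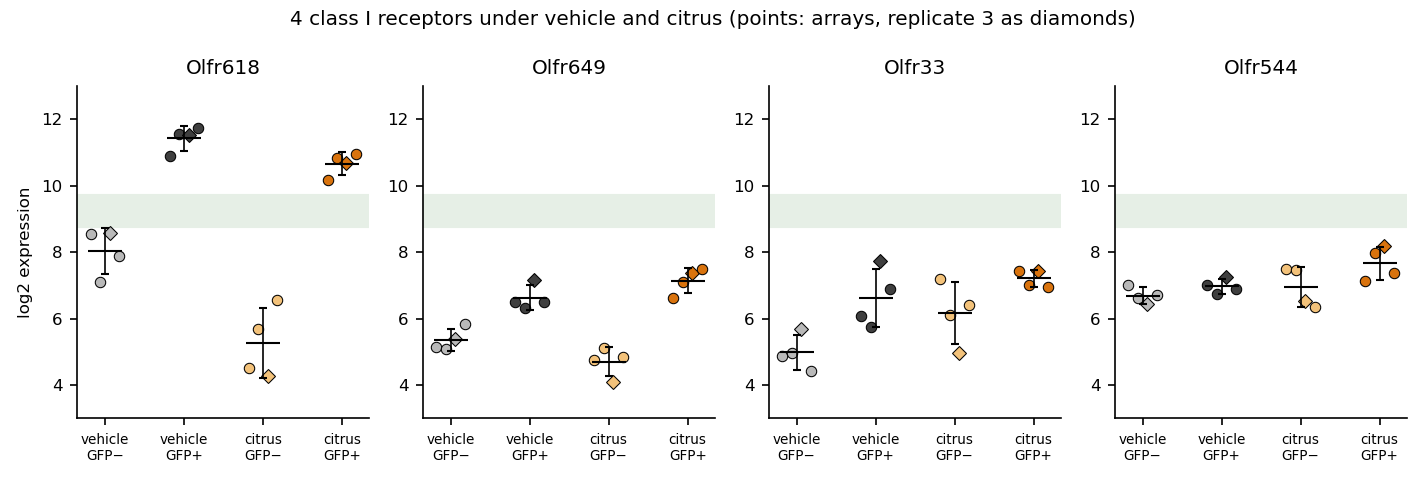
Log2 expression of Olfr618, Olfr649, Olfr33 and Olfr544 on each array of the 4 groups, with group mean and SD (n = 4); diamonds mark replicate 3 and the green band the background lines, 8.75 to 9.71. Among these 4 only the GFP-negative groups of Olfr618 are apart between vehicle (7.11 to 8.58) and citrus (4.28 to 6.57).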

How the data were processed

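RNA of sorted olfactory mucosa cells was measured on 16 Clariom S mouse arrays. The authors deposited log2 expression values for 28846 probe sets, summarised by SST-RMA, per the labels. The submitters' processing notes name Affymetrix Expression Console, with version and genome build not given in the sources used here. Because SST-RMA transforms the signal, fold sizes hold on its scale. The values were not changed further. Of the probe sets 19572 had 1 symbol and were tested, 2634 were without a symbol here and 6640 were controls. Arrays give no read depth, and their number limits the precision.

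Differences were tested 2-sided with limma 3.58.1 (R 4.3.3) for 5 comparisons. The model had a mean for each of the 4 groups, used the 16 arrays and had no pool term. P-values were adjusted after Benjamini and Hochberg across the 19572 probe sets (threshold 0.05). The script was tested on simulated data. GFP-positive and GFP-negative arrays of a pool were taken as the same mice. With group means removed, they correlated at 0.08 to 0.27 across probe sets, so pairing is a reading of the labels and is tried in the alternatives. 

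Members, gene lists and the rule for named genes were chosen with earlier results of these data known. The rule named up to 8 largest rises and falls per gate, the members past the threshold or the 5 smallest p for the citrus comparisons, and always Olfr544, Olfr558, Olfr620, Olfr64 to Olfr69 and Olfr33. Gene order, names and promoter windows came from RefSeq tables of GRCm38.p6. Protein sequences were not used here. Alternatives changed the centring of arrays, the filter on dim probe sets, the prior, weights, the probe sets or groups in the fit, replicates and the replicate block. Plots used matplotlib 3.10.9 (Python 3.11.15).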

Additional observations from a re-analysis of the deposited data

Results flagged for a closer look

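Among 124 groups of 4 arrays (31 named members in 4 groups), 4 held a value far from the other 3, judged by Dixon's test of the gap against the range. Chance flags about 1 in 20 groups. In vehicle GFP-positive cells Olfr69 read 8.82 on array 3 and 5.96 to 6.12 on the others. In vehicle GFP-negative cells Olfr66 read 5.93 on array 2 and 4.09 to 4.23 on the others. In citrus GFP-negative cells Olfr575 read 2.77 on array 1 and 3.15 to 3.22 on the others, and Olfr642 read 2.95 on array 3 and 2.64 to 2.68 on the others. The last 3 receptors were below the background line on all 16 arrays.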

How the results depend on the processing

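Counts of members past the threshold stayed within 1.5 times the values of the report under most alternatives. Leaving out single pools gave 44 to 56 for the gate in vehicle (63 with all arrays) and 54 to 58 in citrus (66), and 58 and 57 without replicate 3 of both stimuli. Of all 19572 probe sets, 2369 to 3437 were called in vehicle with a pool left out (3723 with all arrays). In citrus it was 2477 to 3142 (3569), and 2758 and 2565 without replicate 3 of both stimuli. With probe sets kept only if above the background line on at least 4 arrays, 43 members were tested, and 29 and 27 passed, beside 2012 and 1564 of all probe sets kept. The single call of citrus against vehicle in GFP-negative cells, Olfr618, became 0 with a trended and robust prior, with array weights and with only the groups compared, and 0 to 1 when pools were left out. Centring moved the median gate difference of all probe sets from 0.11 (vehicle) and 0.13 (citrus) to 0.39 and 0.46 (median of all probe sets), -0.35 and -0.61 (receptor median) or -0.18 and -0.23 (mature OSN markers), and the members' median to 1.07 and 1.26, 0.34 and 0.20, or 0.50 and 0.57. The share of higher among called members, 76.2% and 78.8%, was 66.1% and 58.3% with the receptor median (39 higher and 20 lower, and 35 and 25), and in citrus 64.8% without citrus replicate 3. With the receptor median 3963 (vehicle) and 10322 (citrus) of the 19572 probe sets were called. Among the named members' results, signs reversed in 5, none of them called: Olfr544 in vehicle at -0.18 (receptor median) and -0.012 (OSN markers), and in citrus Olfr544 at -0.029, Olfr620 at -0.19 and Olfr64 at -0.23 (receptor median). With the replicate block by number, 67 (vehicle) and 71 (citrus) members passed, and by pool 65 and 71. Of all probe sets 4097 and 4001 were called with the block by number, and 4253 and 4119 by pool. Under either block 0 members passed for the effect on enrichment, Olfr558 in vehicle lost its call (adjusted p = 0.0573 and 0.0525) and Olfr64 in vehicle gained it by pool (adjusted p = 0.0109); no other named call changed. Signal over background limits the rest: 53 of 119 members were never above the line.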
